A study of Homo sapiens with 18 samples.

Results

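Huh7 cells treated with disulfiram (DSF) were compared with control Huh7 cells on 6 of the 18 arrays of the series, 3 in each group. Huh7 is an established line of human hepatocellular carcinoma (HCC). The DSF group was exposed to 0.1 µM DSF for 48 hours, and EpCAM+ cells were isolated by fluorescence-activated sorting, for which the methods describe dead cells being left out by propidium iodide. The labels name the sort after the treatment without stating the order. Total RNA was hybridised in 1 colour to oligonucleotide arrays. EpCAM is an adhesion molecule that marks tumor-initiating HCC cells in the study, so all cells measured had passed a gate on it. The study's methods list DSF together with CuCl2 without naming the vehicle of the controls, and DSF and copper cannot be told apart here. The other arrays held a second HCC line, Huh1, under the same treatments, and both lines treated with 5-fluorouracil. The comparison asks which transcripts differed in EpCAM+ Huh7 cells after DSF.

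DSF is a long-used inhibitor of aldehyde dehydrogenases, and its breakdown product diethyldithiocarbamate binds copper. Copper and zinc ions in the cytosol are held by metallothioneins, small cysteine-rich proteins whose genes lie in a cluster on chromosome 16 and are switched on by the zinc sensor MTF1 at short metal response elements. Misfolded proteins release the heat shock factors, which act on heat shock elements of chaperone genes, and electrophiles release NRF2, which acts on antioxidant response elements. Hepatocytes, the cells that HCC resembles, are known for secreting most plasma proteins and for making glucose, urea, cholesterol and bile acids.

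The promoters of metallothionein and chaperone genes are shown first because the largest rises were in these families, together with that of SLC30A1, a zinc exporter that MTF1 is known to drive. Each sequence is the 250 bases before the annotated start of the gene (RefSeq, GRCh38.p14), read 5′ to 3′ on the strand of the gene. Capitals mark the core of the metal response element (MRE), TGCACNC or TGCGCNC on either strand, in the first 4 sequences, and the heat shock element, TTC and GAA with 2 bases between them, or its inverted form, GAA and TTC with 2 bases between them, in the last 2.
MT2A, chr16:56608334-56608583, plus strand: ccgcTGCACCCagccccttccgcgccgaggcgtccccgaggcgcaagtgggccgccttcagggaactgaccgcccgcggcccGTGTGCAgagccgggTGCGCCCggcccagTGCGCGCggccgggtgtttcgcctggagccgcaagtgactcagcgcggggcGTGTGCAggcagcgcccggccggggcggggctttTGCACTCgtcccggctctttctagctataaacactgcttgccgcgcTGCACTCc
MT1H, chr16:56669564-56669813, plus strand: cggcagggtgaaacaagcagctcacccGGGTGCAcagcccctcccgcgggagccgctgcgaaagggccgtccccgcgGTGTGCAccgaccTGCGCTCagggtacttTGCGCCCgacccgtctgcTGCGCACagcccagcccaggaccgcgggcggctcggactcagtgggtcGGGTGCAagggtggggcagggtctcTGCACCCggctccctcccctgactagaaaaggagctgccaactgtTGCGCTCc
MT1X, chr16:56682220-56682469, plus strand: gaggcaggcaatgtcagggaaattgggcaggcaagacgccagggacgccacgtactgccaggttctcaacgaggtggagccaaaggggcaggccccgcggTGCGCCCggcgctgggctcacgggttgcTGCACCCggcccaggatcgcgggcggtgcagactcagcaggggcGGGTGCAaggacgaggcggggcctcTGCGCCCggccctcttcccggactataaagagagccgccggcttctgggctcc
SLC30A1, chr1:211579162-211579411, minus strand: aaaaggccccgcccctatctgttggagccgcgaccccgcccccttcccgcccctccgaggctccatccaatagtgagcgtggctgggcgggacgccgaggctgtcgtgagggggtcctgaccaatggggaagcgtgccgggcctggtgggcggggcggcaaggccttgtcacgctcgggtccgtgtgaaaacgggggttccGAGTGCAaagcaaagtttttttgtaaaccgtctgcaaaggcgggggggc
HSPA6, chr1:161524290-161524539, plus strand: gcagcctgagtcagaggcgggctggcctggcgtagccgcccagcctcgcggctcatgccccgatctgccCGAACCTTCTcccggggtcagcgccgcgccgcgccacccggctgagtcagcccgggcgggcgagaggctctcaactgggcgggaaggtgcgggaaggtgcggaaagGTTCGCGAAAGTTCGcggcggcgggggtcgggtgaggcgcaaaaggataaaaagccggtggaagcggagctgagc
HSPA1A, chr6:31815293-31815542, plus strand: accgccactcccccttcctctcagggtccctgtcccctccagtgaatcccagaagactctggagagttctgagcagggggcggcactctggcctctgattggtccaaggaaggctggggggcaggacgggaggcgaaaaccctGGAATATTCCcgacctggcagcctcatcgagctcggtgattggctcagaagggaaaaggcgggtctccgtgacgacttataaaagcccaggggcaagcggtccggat

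The windows searched ran from 250 bases before to 50 bases after the start, and 35116 of them were available. MT2A and MT1H held 8 MRE cores each, MT1X held 4 and MT1B held 3, and these were the 4 metallothioneins with a window. At least 3 cores were found in 2.30% of all windows and at least 1 in 29.6%. SLC30A1 held 2. HSPA6 held 1 heat shock element and 2 inverted ones, with bases in common, and HSPA1A held 1 inverted one. Of 30 chaperone genes with a window, 5 held the element (16.7%) and 11 the inverted form (36.7%), against 7.69% and 6.71% of all windows. The core of the antioxidant element, TGACNNNGC or TGAGNNNGC, was in 10 of 21 windows of NRF2 target genes (47.6%) and in 29.1% of all. Over the 549 genes with a window that were called and at least 2-fold higher, 30.1% held an MRE core and 7.65% a heat shock element. Over the 12453 tested genes with a window these shares were 36.9% and 6.19%. A match describes the letters of the window, and binding was not measured.

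Levels below are on the log2 scale with the 75th percentile of each array at 0, and a gene is read from its brightest probe. The labels give 3 arrays a group, and the methods describe independent experiments. The 3 controls and DSF replicate 1 shared a slide, and DSF replicates 2 and 3 were alone on another slide, so slide and treatment overlapped in part. On the control arrays 63.6% to 65.2% of probes were well above background, on DSF replicate 1 64.6%, and on DSF replicates 2 and 3 70.6% and 71.1%. The median absolute difference over probes was 0.185 and 0.177 between DSF replicate 1 and the other DSF arrays, 0.0693 between DSF replicates 2 and 3, and 0.0725 to 0.0796 among controls. All 10 hepatocyte markers were well above background. Their summed linear level, in units of the 75th percentile, was 813 to 844 in controls and 640 to 654 with DSF, with 5 called lower (24.1% of all genes were). In bulk RNA, fewer cells of a type and less RNA per cell cannot be told apart. Of the markers of other cell types, fibroblast markers summed to 0.481 to 0.507 in controls and 0.432 to 0.452 with DSF (2 of 7, COL1A1 and LUM, above background), endothelial ones to 0.25 to 0.273 and 0.281 to 0.314 (3 of 5, without KDR and TEK), and leukocyte ones to 1.91 to 1.95 and 1.88 to 2.05 (5 of 6, without LYZ). Their part in the results was not tested. Of 90 genes that were bright in Huh1 controls and not well above background on any Huh7 control array, 17 were well above background on all DSF arrays, 22 were called at least 2-fold higher and 5 lower (4.86% and 6.06% of all genes were), and the median change was 0.072 (quartiles -0.46 and 1.00). Of 96 genes with the reverse pattern, all were well above background on all DSF arrays. Of these, 2 were called at least 2-fold higher and 19 lower, and the median change was -0.39 (quartiles -0.86 and -0.010). The first set was picked near background in Huh7 controls and had little room to fall. The reverse set was picked for a Huh7 control level above 0. The directions were thus partly fixed by the choice, and the shares over all genes are not a like comparison.

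Of 15852 genes tested, 4596 were higher with DSF (29.0%) and 3825 were lower (24.1%) at a limma adjusted p under 0.05. Over the 29894 probes tested, 27.3% were higher and 19.4% lower, and 4.97% and 4.98% at least 2-fold. At least 2-fold changes of genes numbered 770 rises (4.86%) and 961 falls (6.06%). Of the calls, 54.6% were higher. With the arrays scaled to spike-in RNA, which moved the median change of all probes from 0.083 to -0.092, 1686 genes were higher and 3940 lower. Spike-in probes lay 3.94 to 4.08 above the 75th percentile on controls and 3.96 above it on DSF replicate 1. On DSF replicates 2 and 3, alone on their slide, they lay 4.31 above it. The shift with spike-in scaling thus lay on those arrays, and its cause was not tested. Counts of lists under spike-in scaling are given where they moved most. Each list count is to be read beside the count over all genes in the same setting, which was lower for rises with spike-in scaling and with the slide as a block. All 3 DSF arrays lay above all 3 controls for 37.0% of genes and below them for 32.5%; with 3 against 3, an exact two-sided permutation test cannot give a p below 0.1.

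The largest changes were set against those in DSF replicate 1. They were picked on a mean that includes this array and the same controls, so agreement with it was built in in part. Of the 770 genes that rose at least 2-fold, 763 had the same sign in DSF replicate 1 and 628 were also called with the slide as a fixed block. Of the 961 that fell, 961 and 806 were, and none of either group was called the opposite way. That block leaves DSF replicate 1 against the controls of its slide, and gave 21.9% of genes higher and 13.4% lower. The median of the 770 rises was 1.54 in DSF replicate 1 and 1.61 in the other DSF arrays, and that of the 961 falls was -1.42 and -1.49.

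**Figure D1:**
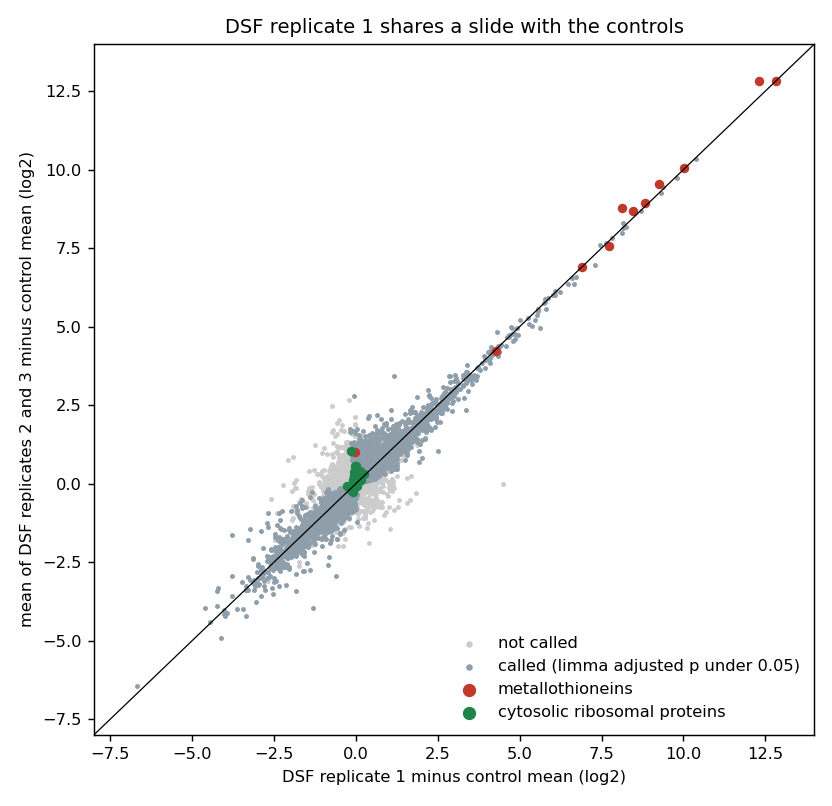
Change from the control mean (log2) of each gene tested, in DSF replicate 1 (horizontal) and in the mean of DSF replicates 2 and 3 (vertical); the line marks equal change, red points are metallothioneins and green points ribosomal protein genes. Metallothioneins lie near the line except MT3, which lies near 0 in DSF replicate 1 and near 1 in the others.

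Metallothioneins rose most. All 11 members tested were called higher (29.0% of all genes were), 10 of them at least 2-fold, with a median change of 8.60 against 0.037 over all genes. MT2A, the most widely expressed form, was -0.012, -0.022 and -0.00018 on the controls and 8.11, 8.72 and 8.79 on DSF replicates 1 to 3, a 375-fold change (log2 8.55, SE 0.18, adjusted p 3.5e-13). MT1X was -1.56, -1.56 and -1.55 in controls and 6.89, 7.11 and 7.10 with DSF. In both genes DSF replicate 1 was the lowest DSF array and lay more than 8 log2 units above every control.

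MT1E was -2.79, -2.66 and -2.61 in controls and 7.31, 7.36 and 7.35 with DSF, a change of 10.03 (SE 0.15). MT1H was -0.69, -0.62 and -0.78 in controls and 7.04, 6.88 and 6.88 with DSF, and MT1B and MT1L rose by 8.90 and 9.45. The DSF arrays did not overlap the controls in any of them, which was a condition for naming them among the largest rises. MT1M and MT1G were not well above background on any control array and lay at 5.03 to 5.54 and at 4.92 on each array with DSF. Measured against the lowest signal that counted as above background, they rose at least 4282-fold and at least 3350-fold. MT1F rose by 6.89, and MT1A, which was already at 3.28 to 3.39 in controls, by 4.24. MT3, a form known from brain, was 1.12, 1.01 and 0.96 in controls and 0.99, 2.03 and 2.04 with DSF, so only the arrays of the other slide were higher (adjusted p 0.86 with the slide as a block). The MT1 genes are nearly identical in sequence and can share probes, so the split between them is uncertain, and MT1L is annotated as a transcribed pseudogene.

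Genes that move copper and zinc changed in both directions, 9 of 31 higher and 12 lower (3 and 12 with spike-in scaling). The shares over all genes were 29.0% higher and 24.1% lower. SLC30A1, which pumps zinc out of the cell, was 1.09, 1.09 and 1.15 in controls and 3.92, 3.83 and 3.80 with DSF, a change of 2.74 (SE 0.11, adjusted p 5.9e-10). SLC30A2, which loads zinc into vesicles, was not well above background in controls and rose at least 55.2-fold, to -0.54, -0.54 and -0.51. SLC30A4, another vesicle transporter, fell by 1.44, and of the 8 zinc exporters 3 were higher and 3 lower. Of the 9 zinc importers 4 were lower and 1 higher. SLC39A10 was 0.63, 0.68 and 0.72 in controls and -0.26, -0.72 and -0.62 with DSF, and SLC39A5 fell by 1.11 (adjusted p 0.074 with the slide as a block). SLC31A1, the main copper importer, fell by 0.76. CP, the copper carrier of plasma, was 1.55, 1.58 and 1.55 in controls and 0.31, 0.28 and 0.31 with DSF. The metal sensor MTF1 rose by 0.46 (adjusted p 0.0016), a call that was lost with spike-in scaling.

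**Figure D2:**
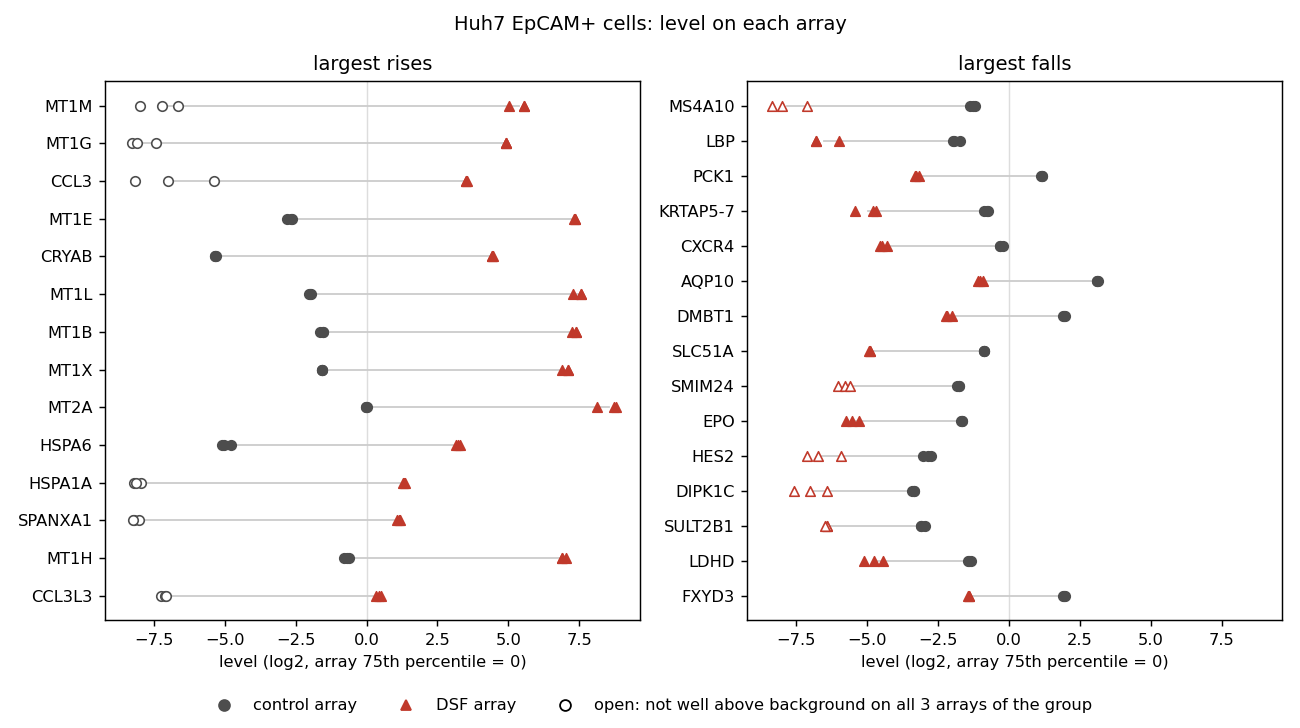
Level (log2, 75th percentile of the array at 0) on each of the 6 arrays for genes with the largest rises (left, 14 genes) and the largest falls (right, 15 genes); circles are control arrays, triangles DSF arrays, and open symbols mark groups not well above background on all 3 arrays. Control and DSF arrays do not overlap in any of the 29 genes, which was a condition for picking them.

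Heat shock chaperone genes, mostly of the cytosol, were higher in 30 of 34 cases and lower in 1. Rises of at least 2-fold numbered 10, and the median was 0.52. With spike-in scaling 14 were higher (1686 of all 15852 genes were). The list includes HSPD1 and HSPE1, chaperonins of mitochondria, and the factors HSF1 and HSF2. HSPA6, a form of HSP70 made almost only under stress, was -5.03, -5.09 and -4.76 in controls and 3.29, 3.24 and 3.15 with DSF, a change of 8.19 (SE 0.14; its other probe gave 4.87). HSPA1A, the main inducible HSP70, was not well above background in controls and rose at least 276-fold, to 1.29, 1.36 and 1.32. HSPA1B, which encodes the same protein, rose by 2.14, from 2.11 to 2.16 in controls, and probes of these near-copies may not separate them. CRYAB, the small heat shock protein alpha-B crystallin, was -5.34, -5.35 and -5.31 in controls and 4.47, 4.41 and 4.42 with DSF, a 869-fold change (log2 SE 0.12). HSPB8, which works with BAG3 in clearing protein aggregates, was -3.97, -3.96 and -3.87 in controls and 0.053, 0.034 and -0.0034 with DSF, and BAG3 rose by 1.25. All DSF arrays lay far above all controls in CRYAB and HSPB8. For CRYAB, as for HSPA6 and HSPA1A, groups without overlap were a condition for naming it among the largest rises.

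By family, all 3 small heat shock proteins, 7 of 9 HSP70 genes, 5 of 6 HSP40 genes and all 5 chaperonin genes were higher. HSPH1, which reloads HSP70 with nucleotide, rose by 1.58, DNAJB1, the main HSP40 partner of HSP70, by 1.24, and the abundant HSP90AA1 by 0.41. HSPA2, a testis-enriched HSP70, was the lower member, at 0.92, 0.83 and 0.98 in controls and 0.41, 0.04 and 0.19 with DSF (adjusted p 0.068 with the slide as a block). HSF1, the main heat shock factor, rose by 0.50. The calls of HSP90AA1 and HSF1 were lost with spike-in scaling.

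Proteasome genes were higher in 27 of 32 cases and lower in none, with a median of 0.42; 26 of these calls remained with the slide as a block, and 10 genes were higher with spike-in scaling. All 6 ATPases of its base were among them. ADRM1, a ubiquitin receptor of the proteasome, was 1.77, 1.72 and 1.72 in controls and 2.86, 2.89 and 2.88 with DSF, and PSMC4, an ATPase, rose by 0.89 (SE 0.068). Of 28 genes of ubiquitin, the VCP segregase and autophagy receptors, 15 were higher and 3 lower (3 and 2 with spike-in scaling). SQSTM1, the autophagy receptor p62, was 3.95, 3.92 and 3.93 in controls and 5.70, 5.73 and 5.67 with DSF. ZFAND2A, a stress-inducible protein of the proteasome and VCP, was 1.23, 1.26 and 1.30 in controls and 3.07, 2.86 and 2.84 with DSF. Both genes lay more than 1 log2 unit above the controls on every DSF array. VCP rose by 0.32 and its adaptor UFD1 by 0.41, while its other adaptor NPLOC4 rose by 0.19 (adjusted p 0.28 with the slide as a block). These 3 calls were lost with spike-in scaling, and that of NPLOC4 also without DSF replicate 2 or 3 or control replicate 1 or 2 (changes of 0.17 to 0.19) and with quantile (0.094) or array median scaling (0.17).

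In the endoplasmic reticulum 15 of 22 chaperone and stress genes were higher and 1, EDEM1 (adjusted p 0.15 with the slide as a block), was lower (7 and 1 with spike-in scaling). CRELD2, a resident of that compartment that is induced by unfolded proteins, was 2.81, 2.85 and 2.77 in controls and 3.94, 4.06 and 4.02 with DSF, and ERN1, the sensor IRE1, rose by 1.22. Targets of ATF4, which answers amino acid shortage, were divided, 7 higher and 12 lower of 30, and 7 and 6 with the slide as a block. ATF3 rose by 1.59, with its 4 probes between 0.26 and 1.62, and ATF5 by 1.23. DDIT4, an inhibitor of mTORC1, was 4.78, 4.82 and 4.79 in controls and 3.22, 3.03 and 3.04 with DSF, and CHAC1, which degrades glutathione, fell by 1.59.

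NRF2 targets and glutathione genes were higher in 17 of 30 cases and lower in 3 (9 and 5 with spike-in scaling). HMOX1, which breaks down heme, was 2.91, 2.91 and 2.97 in controls and 4.48, 4.46 and 4.37 with DSF. AKR1C3, a ketosteroid reductase, was 2.66, 2.53 and 2.59 in controls and 4.0, 4.60 and 4.57 with DSF, AKR1B10 rose by 1.35 and AKR1C1 by 1.33; the AKR1C genes are close copies. All 4 members of the reductase group were higher. Of 6 genes of conjugation and export 2 were lower and 1 higher. GSTA4, a glutathione transferase, fell by 0.79, and SLC7A11, the cystine importer, fell by 0.58 (adjusted p 0.12 with the slide as a block). Of 13 peroxidases and superoxide dismutases 5 were lower, among them GPX2 with -0.77, and SOD2 was the higher member with 0.46 (adjusted p 0.061 with the slide as a block and 0.074 with quantile normalization). FTH1, the ferritin heavy chain, was 7.90, 7.89 and 7.90 in controls and 7.88, 8.61 and 8.62 with DSF, so DSF replicate 1 lay with the controls (adjusted p 0.93 with the slide as a block).

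Genes of chemokines and of NF-kappaB feedback were higher in 13 of 16 cases, 9 of them at least 2-fold, and LCN2, a siderophore-binding protein, fell by 1.12. CCL3, which attracts monocytes, was -8.16, -5.38 and -6.99 in controls, above background on 1 of them, and 3.53, 3.51 and 3.50 with DSF, a fitted change of 10.35 (SE 0.48); its near-copy CCL3L3 rose at least 148-fold. CCL2, another monocyte attractant, rose at least 15.4-fold, to -2.71, -2.99 and -2.85. CXCL8, which draws neutrophils, was -2.65, -2.73 and -2.59 in controls and 0.39, 0.79 and 0.62 with DSF. The cytokine IL6 was -5.34, -5.43 and -4.93 in controls and -2.65, -2.98 and -2.99 with DSF, and CXCL3 rose by 1.68. In none of these genes did the groups overlap (all DSF arrays lay above all controls for 37.0% of all genes), and for CCL3 and CCL3L3 this was a condition for naming them. NFKBIA, which holds NF-kappaB in the cytosol, gave 0.14 and CCL20 gave -0.045, neither called. SPANXA1, a cancer-testis gene with close copies on chromosome X, rose at least 242-fold, to 1.18, 1.13 and 1.08.

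**Figure D3:**
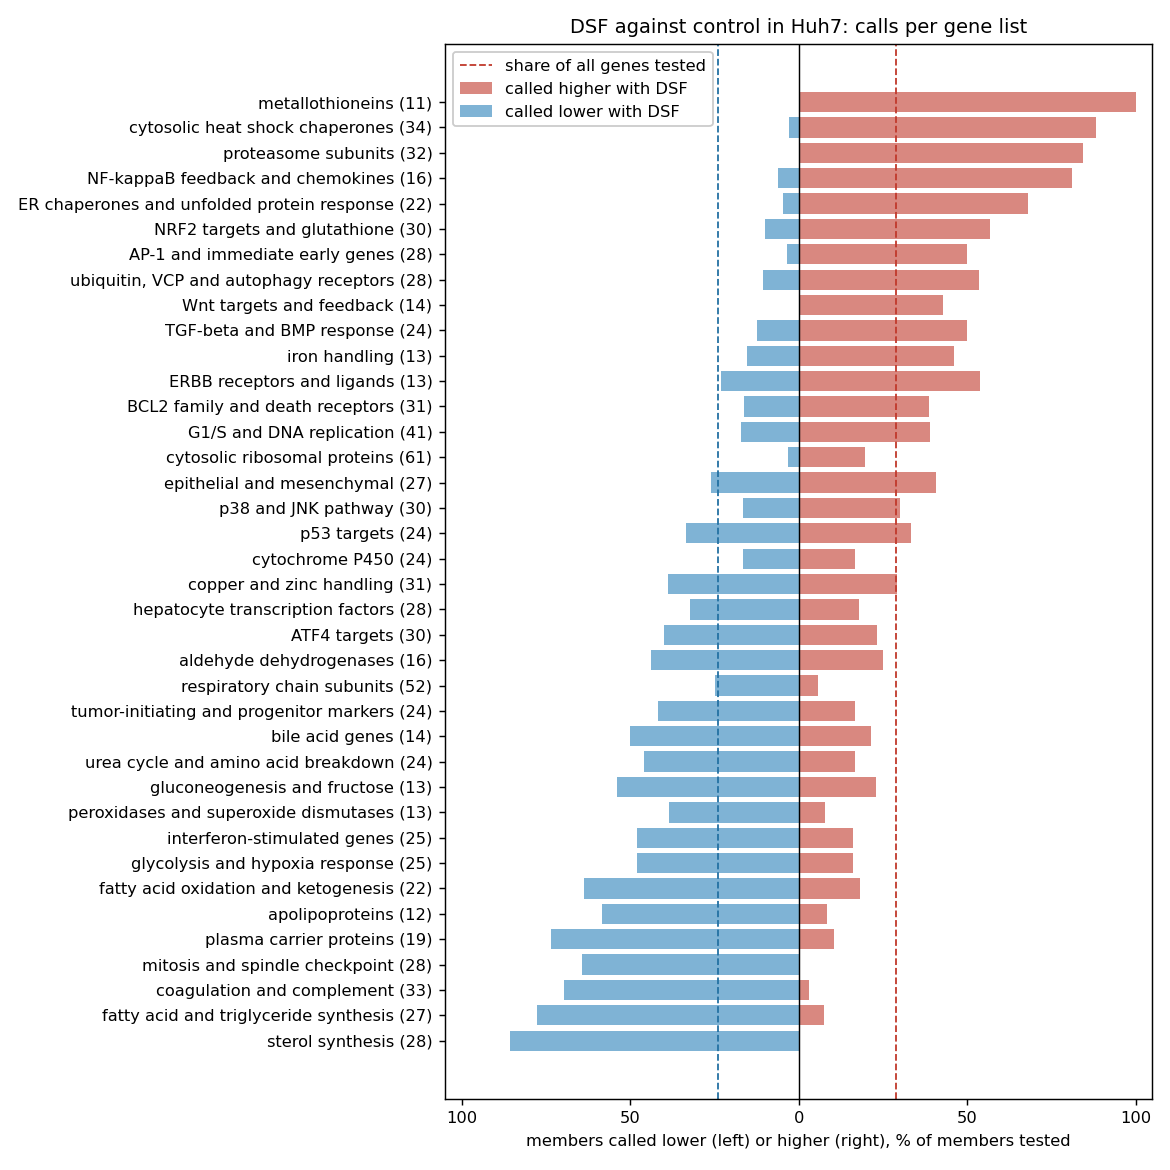
Share of the members tested that were called higher (right) or lower (left) with DSF, in percent, for each gene list, with the number tested in brackets; dashed lines mark 29.0% and 24.1%, the shares over all genes tested. Metallothioneins, chaperones and proteasome subunits have the highest shares of rises, and sterol synthesis the highest share of falls.

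Of 28 AP-1 and immediate early genes 14 were higher and 1, JUND, was lower (8 and 1 with spike-in scaling). Beside each list of this paragraph, the shares over all genes were 29.0% higher and 24.1% lower. FOSL1, a FOS-family subunit of AP-1, rose at least 11.2-fold, from not well above background to -3.42, -3.02 and -3.06, whereas FOS and JUN gave -0.77 and -0.14, not called. PPP1R15A (GADD34), which lets translation restart after stress, was 0.88, 0.81 and 0.91 in controls and 3.12, 3.16 and 3.18 with DSF. Of 8 ligands of the ERBB receptors 6 were higher (3 of the 13 ERBB genes with spike-in scaling, against 7), with HBEGF at -4.92, -4.96 and -4.96 in controls and -3.06, -3.03 and -3.08 with DSF and AREG higher by 1.41. The groups did not overlap in either gene (all DSF arrays lay above all controls for 37.0% of all genes). The receptor ERBB2 fell by 0.91 and ERBB3 fell by 0.63, with its 3 probes between -0.63 and -0.21. In the TGF-beta arm 7 of 12 genes were higher: CCN1, a matrix protein, was 1.70, 1.64 and 1.99 in controls and 4.82, 4.70 and 4.68 with DSF, and the ligand TGFB2 rose by 2.34. LGR5, a Wnt target and stem cell receptor, was -4.86, -4.73 and -4.75 in controls and -3.22, -3.30 and -3.16 with DSF. Among phosphatases of the MAP kinases, 5 of 9 were higher (9 of all 30 genes of the pathway, and 5 with spike-in scaling), with DUSP4 up by 1.70, DUSP10 by 1.38 and DUSP5 by 1.27, and MAPK14 (p38-alpha) was 0.048, 0.03 and 0.063 in controls and -0.40, -0.33 and -0.36 with DSF.

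Cell death genes were higher in 12 of 31 cases and lower in 5 (4 and 5 with spike-in scaling). Beside each list of this paragraph, the shares over all genes were 29.0% higher and 24.1% lower. The pro-apoptotic BH3 genes HRK and BIK rose by 2.24 and 1.69, and the survival gene BCL2 by 1.21. TNFSF10, the death ligand TRAIL, was 0.36, 0.39 and 0.46 in controls and -1.09, -1.42 and -1.41 with DSF. Of 24 p53 targets 8 were higher and 8 lower (5 and 9 with spike-in scaling), with PLK2, a stress-responsive kinase, up by 2.35 and GDF15, a stress cytokine, up by 1.42, and CDKN1A (p21) at -2.42, -2.47 and -2.33 in controls and -3.17, -3.17 and -3.19 with DSF. Of 41 genes of the G1/S step 16 were higher and 7 lower (2 and 8 with spike-in scaling). CDKN2B (p15) rose by 2.08 and CDK2 fell by 0.75. CDKN1C (p57) was -3.66, -3.52 and -3.68 in controls and -3.46, -3.65 and -3.32 with DSF and was not called (adjusted p 0.5). Mitosis genes were lower in 18 of 28 cases and higher in none, none by 2-fold, and 8 of the calls remained with the slide as a block. CDC25C, which starts mitosis, fell by 0.78.

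The falls were smaller than the largest rises. MS4A10, a membrane protein of the MS4A family, was -1.20, -1.35 and -1.26 in controls and not well above background on any DSF array, a fall of at least 63.1-fold. LBP, the plasma protein that binds bacterial lipopolysaccharide, was -1.95, -1.72 and -1.93 in controls and -5.99, -6.77 and -6.78 with DSF. PCK1, which commits carbon to glucose, was 1.18, 1.13 and 1.19 in controls and -3.28, -3.16 and -3.30 with DSF. The DSF arrays lay below the controls by over 3 log2 units in each gene. CXCR4, the receptor of CXCL12, was -0.21, -0.30 and -0.30 in controls and -4.27, -4.52 and -4.48 with DSF, and AQP10, a channel for water and glycerol, was 3.15, 3.11 and 3.11 and -0.89, -1.07 and -0.99. EPO, the hypoxia-driven hormone erythropoietin, was -1.65, -1.67 and -1.64 in controls and -5.28, -5.73 and -5.53 with DSF. SLC51A, a subunit of a bile acid exporter, was -0.88, -0.87 and -0.87 in controls and -4.90, -4.88 and -4.94 with DSF. That the groups did not overlap was a condition for picking every gene of this paragraph, with MS4A10, LBP and PCK1. The other falls were -4.06 (SE 0.51) in DMBT1, a secreted scavenger protein, -4.17 in KRTAP5-7, -4.02 in SMIM24, -3.70 in HES2, -3.39 in SULT2B1, which adds sulfate to sterols, -3.37 in LDHD, which oxidises D-lactate, and -3.36 in FXYD3, a regulator of the sodium pump. DIPK1C fell at least 10.73-fold. SMIM24, HES2 and SULT2B1 were not well above background on all DSF arrays.

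**Figure D4:**
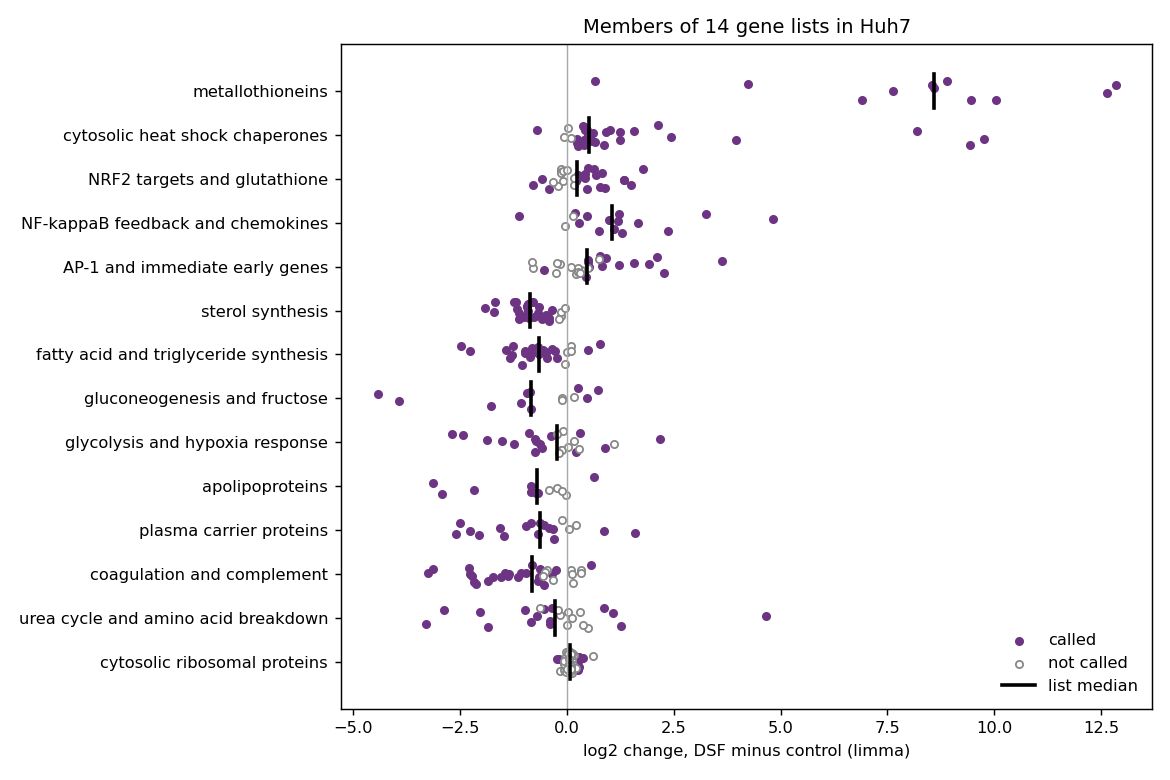
Change (log2, DSF minus control) of each member tested of 14 gene lists; filled points were called, open points were not, and the bar is the median of the list. Nearly all sterol synthesis genes lie below 0, all metallothioneins lie above it, and ribosomal protein genes lie close to it.

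Secreted liver proteins were mostly lower. Of 33 coagulation and complement genes 23 were lower and 1 was higher, with a median of -0.81. PLG, plasminogen, was -2.57, -2.64 and -2.58 in controls and -6.08, -5.85 and -5.58 with DSF, above background on 2 of the DSF arrays, and KNG1, kininogen, fell by 2.28. C8B, part of the complement pore, was -0.56, -0.64 and -0.67 in controls and -3.85, -3.67 and -3.70 with DSF. The higher member was C1S, a protease that starts the complement cascade, with 0.57, a call that was lost with spike-in scaling. Of 19 carrier proteins 14 were lower and 2 higher, and neither rise was called with the slide as a block. AHSG (fetuin-A) was 3.28, 3.25 and 3.22 in controls and 0.83, 0.55 and 0.61 with DSF, SERPINA3, a protease inhibitor, fell by 2.50, GC, the vitamin D carrier, fell by 2.26 and ALB, albumin, fell by 0.33. IGFBP1, which binds insulin-like growth factors, was 0.80, 0.79 and 0.74 in controls and 2.38, 2.39 and 2.39 with DSF, and its adjusted p was 0.068 with the slide as a block. Of 12 apolipoprotein genes 7 were lower, and 4 were with the slide as a block: APOC3, which slows triglyceride clearance, was 5.57, 5.56 and 5.55 in controls and 2.69, 2.56 and 2.69 with DSF, and APOA4 fell by 3.13. APOB, the core protein of LDL, gave -0.0056 and was not called.

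Lipid synthesis genes were mostly lower: 18 of 20 sterol enzymes and 13 of 15 fatty acid genes, none of either higher, and with spike-in scaling the counts over both lists were 24 of 28 and 21 of 27. MSMO1, which demethylates sterol precursors, was 4.29, 4.27 and 4.28 in controls and 2.56, 2.60 and 2.60 with DSF, a change of -1.69 (SE 0.046, adjusted p 5.0e-12). SREBF2, the factor behind sterol genes, gave -0.17 and was not called. ACSS2, which makes acetyl-CoA from acetate, was 2.15, 2.11 and 2.09 in controls and -0.11, -0.17 and -0.15 with DSF. CIDEB, which helps to load lipoproteins with lipid, fell by 2.47. The higher members of the fatty acid and triglyceride list were the lipid droplet coats PLIN2 and CIDEC, with 0.49 and 0.77 (adjusted p 0.13 for CIDEC with the slide as a block), and both calls were lost with spike-in scaling. Of 22 genes of fatty acid oxidation and ketogenesis 14 were lower and 4 higher (16 and 1 with spike-in scaling), and 7 of the lower calls remained with the slide as a block. PPARA, the receptor that drives this pathway, fell by 1.47, its other probe gave -0.67, and ANGPTL4, an inhibitor of lipoprotein lipase, was 0.31, 0.32 and 0.30 in controls and -1.54, -1.58 and -1.58 with DSF.

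Of 6 genes of glucose output 5 were lower, among them PCK1 above and G6PC1, the last step, which fell at least 6.12-fold to not well above background. In glycolysis 4 of 15 genes were higher and 4 lower: PFKP, the platelet phosphofructokinase, was -4.51, -4.63 and -4.74 in controls and -2.45, -2.51 and -2.35 with DSF, and ALDOC, an aldolase, fell by 2.67. Of 10 further genes known to respond to hypoxia 8 were lower and none higher, with ANKRD37 at 0.77, 0.71 and 0.75 in controls and -1.75, -1.58 and -1.68 with DSF. ARG1, which releases urea, was 1.34, 1.24 and 1.26 in controls and -1.83, -2.06 and -2.16 with DSF, and OTC, an earlier step of the cycle, fell by 2.02. CPS1, which feeds the cycle, was the higher member, at -3.40, -3.30 and -3.41 in controls and -2.20, -2.30 and -2.37 with DSF. HPD, of tyrosine breakdown, was -5.90, -3.03 and -5.48 in controls, a wide spread, and -0.12, -0.22 and -0.059 with DSF. AGXT, which detoxifies glyoxylate, fell by 2.87. Of 24 cytochrome P450 genes 4 were higher and 4 lower (29.0% and 24.1% of all genes were). CYP1B1 and CYP1A1, targets of the aryl hydrocarbon receptor, rose by 2.55 and 1.82. The bile acid receptor NR1H4 (FXR) fell by 1.01, and ABCC2, an exporter of conjugates, rose by 0.69.

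Markers of tumor-initiating and progenitor cells were lower in 10 of 24 cases and higher in 4 (4 and 3 with the slide as a block, 10 and 2 with spike-in scaling). Over all genes 24.1% were lower and 29.0% higher, and with the slide as a block 13.4% and 21.9%. With spike-in scaling 3940 of all 15852 genes were lower and 1686 higher. EPCAM, the gene of the gate, was 5.47, 5.48 and 5.53 in controls and 5.03, 5.00 and 4.97 with DSF, a change of -0.50 (adjusted p 0.029, and 0.22 with the slide as a block). PROM1 (CD133) fell by 0.48 (adjusted p 0.027, and 0.21 with the block). Without DSF replicate 2 or 3 or any 1 control array, the adjusted p was 0.060 to 0.076 for EPCAM and 0.057 to 0.076 for PROM1, and it was 0.077 for EPCAM with only the 9 Huh7 arrays in the fit. ANPEP (CD13) was -0.029, -0.11 and -0.079 in controls and -1.30, -1.38 and -1.34 with DSF. In EPCAM and ANPEP all DSF arrays lay below all controls (32.5% of all genes did). GPC3, an oncofetal proteoglycan, was 5.6, 5.59 and 5.62 in controls and 4.87, 4.59 and 4.63 with DSF, and CDH1 (E-cadherin) fell by 1.25. Of the 4 epithelial markers EPCAM, KRT8, KRT18 and CDH1, 2 were higher and 2 lower. Their summed linear level was 245 to 251 in controls and 293 to 303 with DSF. AFP, the fetal relative of albumin, was 8.19, 8.27 and 8.14 in controls and 8.07, 8.59 and 8.57 with DSF. DSF replicate 1 was thus below the controls and the other DSF arrays above them, and AFP was not called (adjusted p 0.25). CD44, a receptor of hyaluronan, was -6.14, -6.20 and -6.28 in controls, above background on 1 of them, and -5.07, -4.39 and -4.38 with DSF. Of the aldehyde dehydrogenases, the enzymes DSF is known to inhibit, 7 of 16 were lower and 4 higher (3 and 2 with the slide as a block, 8 and 1 with spike-in scaling). ALDH2, the mitochondrial form that clears acetaldehyde, was 4.40, 4.42 and 4.45 in controls and 3.93, 3.80 and 3.80 with DSF, and ALDH1A1 fell by 0.42 (adjusted p 0.061 with the block). Of 15 epithelial genes 4 were higher and 5 lower, and of 12 mesenchymal genes 7 were higher and 2 lower. Of 28 hepatocyte transcription factors 5 were higher and 9 lower (29.0% and 24.1% of all genes were). TAGLN, an actin-binding protein of mesenchymal cells, rose by 3.07, and HNF4A, a main hepatocyte factor, was -2.13, -2.17 and -2.08 in controls and -2.71, -2.91 and -2.78 with DSF.

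Of 61 ribosomal protein genes 12 were higher and 2 lower, and none of these calls remained with the slide as a block or with spike-in scaling. Over all genes 3209 of the 4596 higher and 2017 of the 3825 lower calls remained with the block. The median of the list was 0.0064 in DSF replicate 1 and 0.10 in the others. Of 52 respiratory chain subunits 3 were higher and 13 lower (29.0% and 24.1% of all genes were). With the block, 3 of the lower calls remained and none of the higher. Interferon-stimulated genes were higher in 4 and lower in 12 of 25 cases, with IFIT3, an antiviral effector, up by 1.51 while IRF7, a factor of the interferon response, fell by 1.93; 6 genes were lower with the slide as a block. Over all genes, 409 were called higher and 245 lower in DSF replicates 2 and 3 than in DSF replicate 1 by limma, with the lone array assumed to vary like the other groups; these include 26 of the 770 rises and 7 of the 961 falls of at least 2-fold.

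DSF in Huh1 was the most similar comparison of the series and shares no array with that in Huh7; its controls and DSF replicates 1 and 2 were on a separate slide, so line and slide overlapped in part. The effect differed between the lines for 46.3% of genes (limma, test of the difference, adjusted p under 0.05), and for 495 of the 770 rises and 685 of the 961 falls. Of the rises, 452 were also called higher in Huh1 and 36 lower, and of the falls 342 were called lower and 150 higher. For comparison, the effect of DSF in Huh1 over all 15852 genes tested gave 4170 rises and 4167 falls. The 770 rises and 961 falls were picked for their size in Huh7, which the difference contains. SLC30A1 rose by 2.74 in Huh7 and by 2.64 in Huh1 (adjusted p of the difference 0.64). The median of the metallothioneins was 8.60 in Huh7 and 7.74 in Huh1, that of the chaperones 0.52 and 0.084, and that of sterol synthesis -0.84 and -0.40. CRYAB changed by 9.76 in Huh7, from -5.33 in controls, and by 1.82 in Huh1, from 0.78 (adjusted p of the difference 3.0e-12). DDIT4 changed by -1.70 in Huh7 and 1.08 in Huh1 (5.9e-10). ANGPTL4 changed by -1.88 in Huh7 and 2.27 in Huh1 (adjusted p of the difference 1.4e-09). The last 2 genes thus had opposite signs in the lines.

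**Figure D5:**
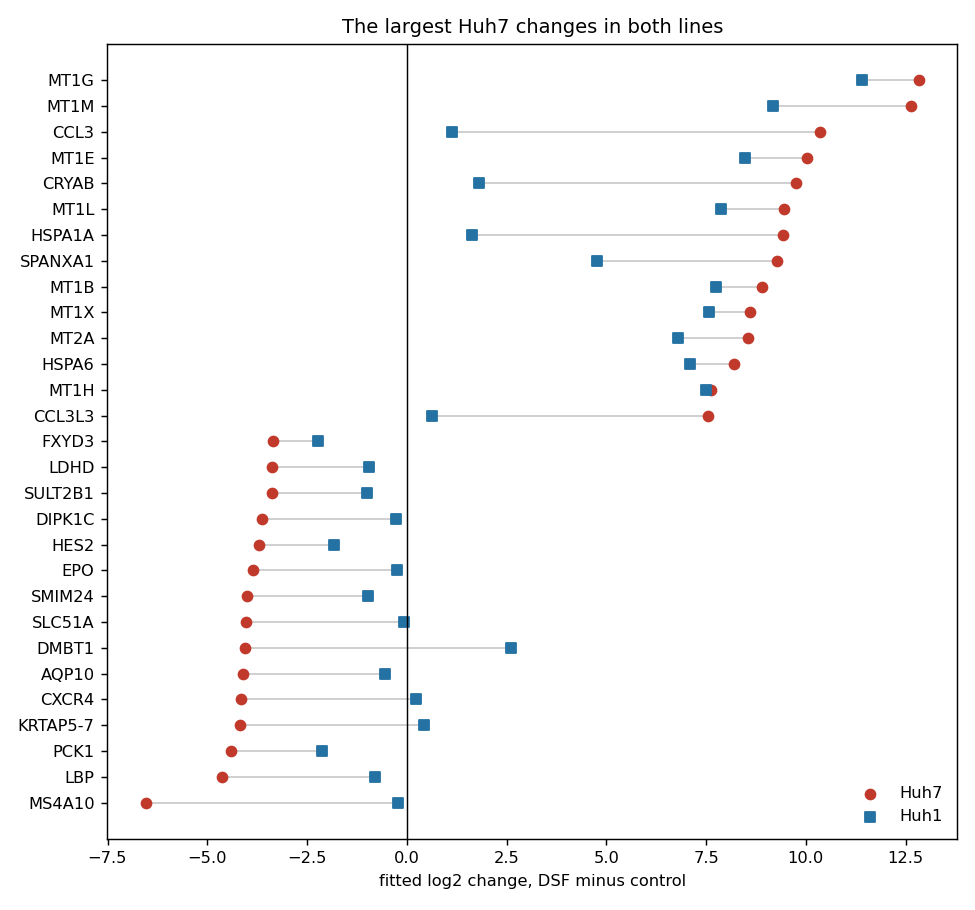
Fitted change (log2, DSF minus control) of 29 genes with the largest Huh7 changes, in Huh7 (circles) and Huh1 (squares). CCL3, CRYAB, HSPA1A, CCL3L3, MS4A10 and DMBT1 lie more than 6 log2 units apart in the lines, MT1H lies at nearly the same value, and DMBT1, KRTAP5-7 and CXCR4 have opposite signs, with 2.61, 0.43 and 0.22 in Huh1. The mean level of CXCR4 in Huh1 was -7.70 in controls and -7.48 with DSF, below the lowest signal well above background on those arrays.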

How the data were processed

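Gene expression was measured on 18 1-colour Agilent SurePrint G3 arrays, 3 for each combination of Huh1 or Huh7 with control, DSF or 5-fluorouracil; per the labels, groups and replicate numbers are those used here. The deposited scanner files hold the background-subtracted processed intensity of each spot, made by the authors with Agilent Feature Extraction (10.7.1.1 per the file headers). The authors' normalized table, also deposited, held the same log2 values up to a constant for each array and served as an alternative. No spot was saturated and 316 to 447 spots an array were left out as outliers. Array number limits the precision, and an array has no read depth.

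Processed intensity was taken to log2 and the 75th percentile of each array subtracted (R 4.3.3, limma 3.58.1, Python 3.11.15). Of 42405 non-control probes 42327 were used, and tests covered 29894 of them, those with every array of 1 or more groups well above background. RefSeq accessions (GRCh38.p14 table) named 25771 probes for 19740 genes. lmFit and eBayes were run on all 18 arrays with 6 groups, and calls took a Benjamini-Hochberg adjusted p under 0.05, adjusted over all probes tested; a gene took the p of its brightest probe. Spike-in scaling used 6 spike-in probes. A gene not well above background on any array of a group received a bound, the mean of its bright group against, on each dim array, the higher of its own signal and the lowest signal well above background. Named genes were the 15 largest rises and 15 largest falls that did not overlap and were also called with the slide as a block, up to 4 called members per list and direction, and 11 genes of the study's interest; BAG3, HSPH1, DNAJB1, HSP90AA1, HSF1, HSPA1B, VCP, UFD1, NPLOC4, EDEM1, MT1A, MT1F, MT3, SLC31A1, NFKBIA, CCL20, FOS, JUN, JUND, SREBF2, ALB and APOB were added after their values were seen. Some genes under the rule are not reported here. The members and lists were chosen with earlier results of these data known. The fit was tested on simulated data. Alternatives covered scaling, background, filter, samples, slide, replicate number, spread and probe choice.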

Additional observations from a re-analysis of the deposited data

Results flagged for a closer look

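Of 29 genes with the largest Huh7 changes, 27 had an effect of DSF that differed between Huh7 and Huh1 in limma's test of the difference (adjusted p 3.0e-12 to 0.027), against 46.3% of all genes; the genes were picked for their size in Huh7, which the difference contains. Differences below are the Huh7 effect minus the Huh1 effect on the log2 scale.

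Among metallothioneins, MT1M differed by 3.45, MT2A by 1.76, MT1L by 1.58, MT1E by 1.56, MT1G by 1.43, MT1B by 1.16 and MT1X by 1.04, all with rises in both lines. Among chaperones, CRYAB differed by 7.95, HSPA1A by 7.79 and HSPA6 by 1.09. The lines started from unlike levels. HSPA1A was at 4.90 in Huh1 controls and 6.54 with DSF, and at -8.10 and 1.32 in Huh7. CRYAB was at 0.78 and 2.59 in Huh1, and at -5.33 and 4.43 in Huh7. HSPA1A in Huh7 with DSF thus stayed below its level in Huh1 controls. The calls of MT1G, HSPA6, SPANXA1 and LDHD were each lost under at least 1 alternative. The remaining rises were CCL3 with 9.22, CCL3L3 with 6.94 and SPANXA1 with 4.49. In MT1M, MT1G, HSPA1A, SPANXA1 and CCL3L3 the Huh7 control level was not well above background. In CCL3 it was well above background on only some control arrays. The size of the difference thus depends on dim probes in all these genes.

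For the falls, the difference was -6.67 in DMBT1 (2.61 in Huh1), -6.31 in MS4A10, -4.60 in KRTAP5-7, -4.37 in CXCR4, -3.98 in SLC51A, -3.85 in LBP, -3.62 in EPO, -3.56 in AQP10, -3.35 in DIPK1C, -3.05 in SMIM24, -2.42 in LDHD, -2.38 in SULT2B1, -2.28 in PCK1 and -1.89 in HES2. In DIPK1C and MS4A10 the DSF level was not well above background. The mean levels of MS4A10, CXCR4, EPO and DIPK1C in Huh1 controls were -7.52, -7.70, -7.67 and -7.46. These lay below the lowest signal well above background on those arrays, so a fall in Huh1 could not be seen.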

How the results depend on the processing

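Counts of calls depended most on scaling, on the background correction and on the slide. With spike-in scaling 3241 probes and 1686 genes were higher. With normexp correction 529 probes were at least 2-fold higher and 748 lower, and 325 genes higher and 558 lower. With only probes well above background on all 6 arrays, 772 probes and 402 genes were at least 2-fold higher. With the slide as a fixed block 5255 probes were higher and 3293 lower and 2125 genes lower, and with DSF replicate 1 as the only DSF array 5067, 3124 and 2048. In the fit with the slide as a block, 2-fold calls were 344 higher and 460 lower with normexp, and 393 higher with only probes above background on all 6 arrays. The cause was not tested.

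For DSF replicates 2 and 3 against replicate 1, array median scaling gave 1619 lower, 86 at least 2-fold higher and 35 at least 2-fold lower. Spike-in scaling gave 77 higher and 1591 lower, 44 and 82 of 2-fold. Normexp gave 58 and 3 of 2-fold, and probes above background on all 6 arrays 3 lower by 2-fold. The number lower was 146 with no filter, 46 with the 9 Huh7 arrays, 380 with trended and robust eBayes and 107 with a replicate block. Leaving out each array in turn gave 210 to 385 higher and 47 to 186 lower. For Huh7 minus Huh1, array median scaling gave 1172 genes at least 2-fold higher, spike-in scaling 827 higher with 366 and 2353 of 2-fold, and normexp 404 and 949 of 2-fold.

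Of 164 named genes, 138 kept direction and side of the threshold under those of the 20 alternatives with a fit that tested them. With only probes well above background on all 6 arrays, 142 of the 164 were tested. The rest, dim on 1 or more of these arrays, have no value there. Signs turned in CDKN1C (-0.032) and NFKBIA (-0.031) with spike-in scaling, in AFP (-0.13), FTH1 (-0.015) and MT3 (-0.037) both with the slide as a block and with DSF replicate 1 alone, in APOB without DSF replicate 1 (0.028) or control replicate 2 (0.036; -0.050 to 0.036 over each array left out), in CCL20 without DSF replicate 1 (0.0059; -0.076 to 0.0059), and in the differences between lines of MT1G with normexp (-1.11) and MT1H with spike-in scaling (-0.16). Spike-in scaling lost the calls of C1S, CIDEC, FTH1, HSF1, HSP90AA1, MT3, MTF1, NPLOC4, PLIN2, SOD2, UFD1 and VCP. SREBF2 was called with quantile normalization and with only the 6 arrays. NPLOC4 lost its call with quantile and array median scaling, SOD2 with quantile normalization, EPCAM with only the 9 Huh7 arrays, and FTH1 and MT3 with only the 6 or the 9. The difference between lines lost its call in HSPA6 with spike-in scaling (0.79), in SPANXA1 with normexp (1.14), in LDHD with the slide as a block (-2.36) or DSF replicate 1 alone (-2.41), and in MT1G with spike-in scaling (1.13), with the block (1.48), with DSF replicate 1 alone (1.44) and without control replicate 1 (1.26) or 2 (1.36). The median over all probes of a gene, a value with no test, moved 19 of the 164 genes by more than the spread between replicates and turned no sign. Of these, ERBB3 moved most in proportion, from -0.63 to -0.24, HSPA6 moved from 8.19 to 6.53, CCL3L3 from 7.56 to 6.66, DMBT1 from -4.06 to -3.49 and PFKP from 2.19 to 2.71.

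With the replicate number as a block, 4432 genes were higher and 3749 lower. Deviations of same-numbered arrays from their group means correlated by -0.093, -0.0056 and -0.059. Such deviations sum to 0 over 3 arrays, and in the DSF group they hold the difference between the slides. These values thus cannot decide whether the numbers pair the arrays. Dim probes limit fold sizes, and 3 arrays a group, with 2 of the DSF arrays on a slide of their own, limit small changes.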

Other observations

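The genes below are outside the gene lists and were each chosen after their values were seen, so they stand for no group. Among rises, MMP10 (stromelysin-2), MMP1 (interstitial collagenase), MMP7 (matrilysin) and MMP3 (stromelysin-1) were not well above background on any control array and well above it on all DSF arrays. They rose at least 116-fold, 131-fold, 134-fold and 19.4-fold, and all 4 calls were also made with the slide as a block. Their fitted changes in Huh1 were 5.92, 6.12, 1.90 and 3.76. The cytokine gene IL11 was -2.96, -4.15 and -4.20 in controls and 0.067, 0.13 and -0.0002 with DSF, and the cytokine subunit gene IL23A rose by 4.25. ANXA1 (annexin A1), which binds membrane phospholipids, was -3.60, -3.75 and -3.91 in controls and 2.89, 2.58 and 2.59 with DSF, and LDHB, a subunit of lactate dehydrogenase, was -3.75, -4.13 and -3.84 and 1.55, 1.29 and 1.31. TUSC3, a subunit of the oligosaccharyltransferase, was not well above background in controls and rose at least 96.2-fold. In Huh1 the changes of ANXA1, LDHB and TUSC3 were 0.23, -0.35 and 0.23 (adjusted p of the difference between lines 2.9e-10, 5.5e-08 and 3.1e-12, limma).

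Among falls, REG1A (regenerating protein 1-alpha) was 4.44, 4.44 and 4.48 in controls and 1.42, 1.28 and 1.30 with DSF, and REG3G, an antibacterial lectin, was -1.79, -1.85 and -1.78 and -4.96, -4.81 and -5.13. LEAP2, a liver peptide that blocks the ghrelin receptor, fell by 3.11, with -0.95 in Huh1. CDH3 (P-cadherin) was -0.53, -0.48 and -0.50 in controls and -3.59, -3.77 and -3.78 with DSF, and 0.33 in Huh1.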
